A study of Mus musculus with 6 samples.

Results

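Prostaglandins and leukotrienes are lipid mediators made from arachidonate, and 10 genes of their synthesis were examined in mouse macrophages, either wild type (WT) or without the secreted glycoprotein progranulin (PGRN KO), the product of Grn. The genes were chosen by name as rows of a table of 54532 genes: Pla2g4a, Ptgs1, Ptgs2, Ptges, Ptgis, Hpgds, Alox5, Alox5ap, Lta4h and Alox15. All 10 were found, each as 1 row. The data were 3 WT libraries (replicates 1, 2 and 3) and 3 PGRN KO libraries (replicates 4, 5 and 6) of RNA sequencing. Per the labels, both groups were of strain C57BL/6J, and the cells came from the peritoneal cavity, were plated at 2000000 per well overnight and then received 1 Candida albicans cell per macrophage for 6 hours. The study's methods instead describe bone marrow-derived macrophages, and its text gives a different dose of fungus for them, so where the cells came from and the dose remain unsettled and the labels are used here. No unchallenged library was analysed here, so every difference below is between genotypes in the presence of the fungus. The PGRN KO and WT mice came from different suppliers in the study's methods, so genotype and source of the mice cannot be told apart. Nothing in the labels says that replicates came from separate animals, and the p-values then measure only the spread between these libraries, which may be technical. Ages of the mice are not given in the labels.

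Arachidonate is stored in membrane phospholipids and freed by the cytosolic phospholipase A2 that Pla2g4a encodes. The cyclooxygenases, constitutive COX-1 (Ptgs1) and inducible COX-2 (Ptgs2), turn it into prostaglandin H2, from which Ptges makes prostaglandin E2, Ptgis makes prostacyclin and Hpgds makes prostaglandin D2. In the other branch 5-lipoxygenase (Alox5), helped by its membrane partner FLAP (Alox5ap), makes leukotriene A4, and Lta4h converts this to leukotriene B4, an attractant of neutrophils. Alox15 encodes a lipoxygenase of resident peritoneal macrophages that takes part in making lipoxins and related mediators. Macrophages are a main source of these lipids in inflammation, and COX-2 is strongly induced in them by microbial products.

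Levels are given as FPKM, fragments scaled to gene length and library size, so that levels of different genes can be set side by side. Differences are log2 fold changes of PGRN KO against WT on the log2(FPKM + 1) scale with their SE, and adjusted p is that of limma with Benjamini-Hochberg adjustment over the 8882 genes with a mean of at least 1 FPKM. The threshold was 0.05. The libraries held 15996786 to 17551619 fragments. Grn was at 323 to 337 FPKM in the WT libraries and 0 to 0.0167 FPKM in the PGRN KO libraries, with 56466 fragments in WT against 2 in PGRN KO. PGRN KO replicate 6 stood apart. Its deviations from the mean of all libraries correlated negatively with gene length across genes (Spearman -0.47, against 0.15 to 0.24 in the other 5 libraries). Values without it are therefore given for those of the 10 genes that passed the filter, for the enzyme ratios and for some further genes. All 7 macrophage markers passed the filter in these libraries, among them Adgre1, Cd68 and Lyz2. Of 8 markers of large peritoneal macrophages, 4 passed the filter. Over all libraries Gata6 was at 3.78 to 5.07, Icam2 at 2.94 to 5.43, Prg4 at 10.4 to 16.2 and Cd9 at 269 to 329 FPKM. Timd4, Selp, Garnl3 and Vsig4 were under 0.5 FPKM in each library.

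Among the 10 genes, Ptgs2 and Ptges, the inducible genes of prostaglandin E2 synthesis, had the highest levels in every library. By the test, 3 genes were lower in PGRN KO: Ptgs2 (1.71-fold), Alox5ap (1.56-fold) and Hpgds (2.52-fold). None of the 10 genes was higher in PGRN KO by the test. Of the 10, 7 passed the filter on low values and 3 (Alox5, Ptgis and Alox15) did not. The 3 calls among the 7 tested stand beside a background of 24.2% of all tested genes called, 13.8% called lower and 10.4% called higher, and Hpgds passed the filter only through its WT level. On a TPM scale, where every library has the same sum, 911 genes were called higher and 593 lower, against 921 and 1230 here. The median log2 fold change of the 7 was -0.34, against -0.03 over all genes tested. For 5 of the 7 the libraries of the groups were fully separated, where 48.8% of all tested genes did not overlap. The 10 genes were chosen with earlier results of these data known, so these shares and medians are no test of them as a set. In WT the levels fell in the order Ptgs2, Ptges, Alox5ap, Pla2g4a, Ptgs1, Lta4h, Hpgds, Alox5, Ptgis and Alox15, and no neighbours in that order had overlapping ranges. In PGRN KO the order was the same down to Hpgds, followed by Ptgis, Alox5 and Alox15. There the ranges of Hpgds and Ptgis overlapped, as did those of Ptgis and Alox5.

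**Figure D1:**
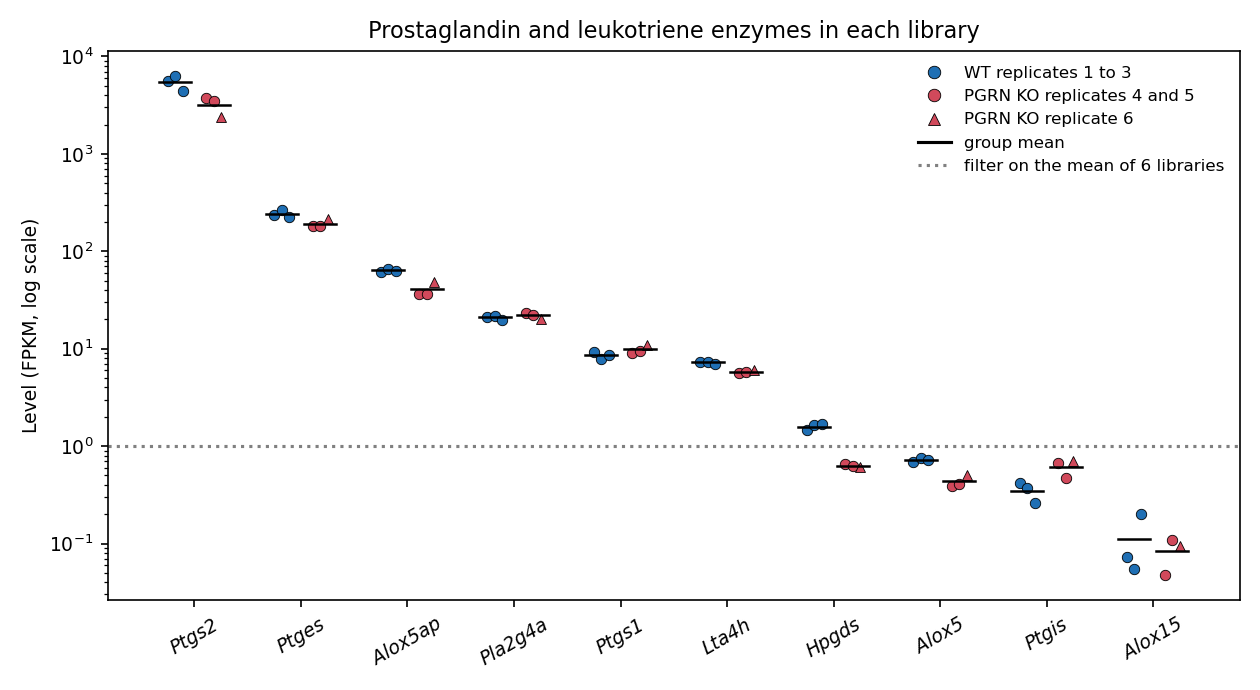
Level of the 10 enzyme genes in each library, in FPKM on a log axis, with WT libraries in blue and PGRN KO libraries in red, PGRN KO replicate 6 as a triangle, group means as bars and the filter of 1 FPKM as a dotted line. Ptgs2 lies at 2416 FPKM or more in every library, and Alox5, Ptgis and Alox15 lie under the filter.

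The phospholipase that opens the pathway did not pass the test. Pla2g4a (ENSMUSG00000056220, chromosome 1, 149829618 to 149961290, minus strand, GRCm38) measured 21.4, 21.7 and 19.8 FPKM in the WT libraries, replicates 1 to 3, against 23.3, 22.3 and 20.4 FPKM in the PGRN KO libraries, replicates 4 to 6. The groups overlapped, with WT replicates 1 and 2 above PGRN KO replicate 6. The log2 fold change was 0.07 ± 0.09 with a 95% interval from -0.15 to 0.28 (limma adjusted p = 0.623), and the test was not passed in any of 14 alternative settings. Without PGRN KO replicate 6 the log2 fold change was 0.12 (limma adjusted p = 0.171).

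Ptgs2, which encodes COX-2 (ENSMUSG00000032487, chromosome 1, 150100031 to 150108227, plus strand), was among the most abundant transcripts of the cells. It measured 5606, 6346 and 4452 FPKM in the WT libraries, replicates 1 to 3, against 3730, 3460 and 2416 FPKM in the PGRN KO libraries, replicates 4 to 6. All WT libraries lay above all PGRN KO libraries, and PGRN KO replicate 6 was the lowest. Ranked by FPKM among all genes, it was at position 7, 6 and 8 in the WT libraries and at 10, 12 and 23 in the PGRN KO libraries. The group means were 5468 ± 954 and 3202 ± 694 FPKM (SD, n = 3 each), 1.71-fold higher in WT, with a log2 fold change of -0.78 ± 0.21 and a 95% interval from -1.29 to -0.27 (limma adjusted p = 0.0392).

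The Ptgs2 call lay close to the threshold. It was lost when any 1 library other than PGRN KO replicate 6 was left out (limma adjusted p = 0.135, 0.134 and 0.0560 without WT replicates 1, 2 and 3, and 0.0560 and 0.0677 without PGRN KO replicates 4 and 5). Without PGRN KO replicate 6 the log2 fold change was -0.59 (limma adjusted p = 0.0246). The call was also lost without the filter on low values (limma adjusted p = 0.184) and on a TPM scale (0.0614), while the direction was negative in all 14 alternatives.

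Ptgs2 alone took a visible part of each library. Of all counted fragments, Ptgs2 held 2.50%, 2.69% and 2.10% in the WT libraries, replicates 1 to 3, against 1.79%, 1.72% and 1.11% in the PGRN KO libraries, replicates 4 to 6. The means were 2.43% ± 0.302 and 1.54% ± 0.378 (SD, n = 3 each), and the groups did not overlap (exact two-sided permutation p = 0.1, the smallest that 3 against 3 can give, 0.15 after Benjamini-Hochberg adjustment over 3 shares). The 10 genes together took 2.55% ± 0.304 of fragments in WT and 1.65% ± 0.374 in PGRN KO (exact permutation p = 0.1, adjusted 0.15). Most of that sum was Ptgs2, which made up 95.1% ± 0.562 of the fragments of the 10 genes in WT and 93.1% ± 2.05 in PGRN KO (exact permutation p = 0.2, adjusted 0.2).

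Ptgs1, the constitutive counterpart (ENSMUSG00000047250, chromosome 2, 36230426 to 36252272, plus strand), was far less abundant and did not differ by the test. It measured 9.34, 7.87 and 8.59 FPKM in the WT libraries, replicates 1 to 3, against 9.08, 9.51 and 10.9 FPKM in the PGRN KO libraries, replicates 4 to 6. The groups overlapped, since WT replicate 1 lay above PGRN KO replicate 4. The log2 fold change was 0.17 ± 0.10 with a 95% interval from -0.07 to 0.42 (limma adjusted p = 0.263), and none of 14 alternatives passed the threshold. Without PGRN KO replicate 6, the library with the highest Ptgs1 level, the log2 fold change was 0.10 (limma adjusted p = 0.338). The gene shares 148 bases with the antisense gene Gm43621, and the sources used here do not give the strand setting of the counting.

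The starts of the 2 cyclooxygenase genes are shown because their transcripts differ so much in level and in the comparison. The stretches are from RefSeq (GRCm38.p6), run 5′ to 3′ on the gene's strand and hold 250 bases before the annotated start and 30 bases from it. Ptgs2 lies at chr1:150099781-150100060 and Ptgs1 at chr2:36230176-36230455, both on the plus strand. Capitals mark matches to the 6 motifs searched on both strands.
Ptgs2: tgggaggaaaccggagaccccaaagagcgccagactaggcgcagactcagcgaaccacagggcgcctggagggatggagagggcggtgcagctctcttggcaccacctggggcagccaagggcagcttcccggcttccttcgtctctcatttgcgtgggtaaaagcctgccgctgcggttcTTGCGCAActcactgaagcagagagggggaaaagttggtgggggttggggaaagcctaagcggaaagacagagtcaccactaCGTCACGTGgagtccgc
Ptgs1: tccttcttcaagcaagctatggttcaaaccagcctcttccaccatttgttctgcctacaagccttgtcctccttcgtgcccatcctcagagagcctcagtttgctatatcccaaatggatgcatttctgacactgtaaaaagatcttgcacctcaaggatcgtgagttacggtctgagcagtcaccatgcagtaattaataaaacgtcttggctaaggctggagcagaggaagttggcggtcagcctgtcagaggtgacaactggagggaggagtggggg
The Ptgs2 stretch held 3 matches. The sequence TTGCGCAA, a match to the C/EBP motif TTGCNNAA, began 69 bases before the start, and 10.4% of 32851 RefSeq promoters of this length hold such a match. From base 14 after the start, CGTCA matched the cAMP response element core TGACG, found in 19.9% of promoters, and it overlapped the E-box CACGTG from base 17, found in 6.79%. The Ptgs1 stretch held no match to these motifs, nor to the AP-1 motif TGANTCA (7.46% of promoters), the interferon-stimulated response element (3.28%) or TATAAA (13.1%). These matches describe letters only.

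Relative to COX-1, COX-2 transcripts were lower in every PGRN KO library. The ratio of Ptgs2 to Ptgs1 FPKM within a library was 600, 807 and 518 in the WT libraries, replicates 1 to 3, against 411, 364 and 222 in the PGRN KO libraries, replicates 4 to 6. The groups did not overlap. The mean ratio was 642 ± 149 in WT against 332 ± 98.2 in PGRN KO (SD, n = 3 each), a log2 difference of -0.97 (exact permutation p = 0.1, the smallest possible, adjusted p = 0.2 over 2 ratios), and -0.71 without PGRN KO replicate 6.

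Ptges, the inducible microsomal synthase of prostaglandin E2 (ENSMUSG00000050737, chromosome 2, 30889471 to 30929863, minus strand), was the gene next in level. It measured 237, 266 and 226 FPKM in the WT libraries, replicates 1 to 3, against 183, 180 and 213 FPKM in the PGRN KO libraries, replicates 4 to 6. Every WT library was above every PGRN KO library, with PGRN KO replicate 6 closest to WT. The log2 fold change of -0.34 ± 0.11 (95% interval -0.60 to -0.07) did not pass the threshold (limma adjusted p = 0.0700). Without PGRN KO replicate 6 it was -0.41 and passed (limma adjusted p = 0.00851), and 5 of 14 alternatives passed in all. The ratio of Ptges to Ptgs2 was 0.0423, 0.0418 and 0.0507 in WT and 0.0490, 0.0521 and 0.0882 in PGRN KO. The groups overlapped, and the log2 difference of 0.44 (exact permutation p = 0.2, adjusted 0.2) was 0.18 without PGRN KO replicate 6, the library with the highest ratio.

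**Figure D2:**
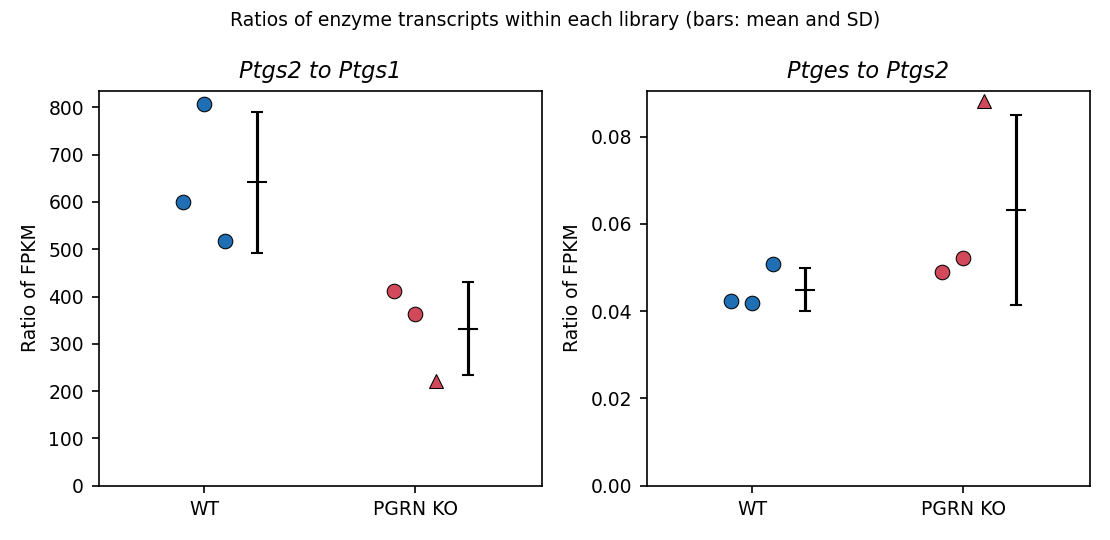
Ratio of FPKM within each library for Ptgs2 to Ptgs1 (left) and Ptges to Ptgs2 (right), with 3 WT libraries in blue, 3 PGRN KO libraries in red, PGRN KO replicate 6 as a triangle, and bars for mean and SD. The ratio of Ptgs2 to Ptgs1 is at 518 or more in WT and 411 or less in PGRN KO, and the Ptges to Ptgs2 ratio is highest in PGRN KO replicate 6.

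Hpgds, the hematopoietic prostaglandin D2 synthase (ENSMUSG00000029919, chromosome 6, 65117293 to 65144908, minus strand), was lower in PGRN KO. It measured 1.45, 1.63 and 1.67 FPKM in the WT libraries, replicates 1 to 3, against 0.656, 0.625 and 0.603 FPKM in the PGRN KO libraries, replicates 4 to 6. The groups were well separated, and all PGRN KO libraries were under the filter of 1 FPKM. The means were 1.59 ± 0.118 and 0.628 ± 0.0265 FPKM (SD, n = 3 each), 2.52-fold higher in WT, from 505 fragments in WT and 216 in PGRN KO. The log2 fold change was -0.67 ± 0.09 with a 95% interval from -0.88 to -0.45 (limma adjusted p = 0.00451), a size that the added 1 FPKM understates. The call held in all 13 alternatives that tested the gene, without PGRN KO replicate 6 included (limma adjusted p = 0.00311). Fits that left out a library kept the filter set on all 6 libraries, which Hpgds passed only through its WT level. They therefore do not show that the gene would pass the filter without a given WT library.

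Hpgds is also known as a transcript of mast cells. The summed level of 8 mast cell markers was 3.01 to 3.66 FPKM in WT against 10.6 to 14.6 FPKM in PGRN KO, the opposite direction to Hpgds. Of these, Tpsb2 and Cma1 were higher in PGRN KO by the test, Cma1 having passed the filter only through PGRN KO. Ms4a2 was listed at 0 in every library, and Kit and Fcer1a were under 0.5 FPKM. Cpa3, Mcpt4, Fcer1a and Gata2, all untested, were higher in PGRN KO by mean. Kit was lower, at 0.345 FPKM in WT against 0.210 FPKM in PGRN KO. The part of mast cells in the Hpgds difference was not tested.

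The start of Hpgds (RefSeq, GRCm38.p6, chr6:65144701-65144980, minus strand, 250 bases before the start and 30 from it) is shown for comparison with Ptgs2, since both genes were lower in PGRN KO. Capitals mark its only match to the 6 motifs.
Hpgds: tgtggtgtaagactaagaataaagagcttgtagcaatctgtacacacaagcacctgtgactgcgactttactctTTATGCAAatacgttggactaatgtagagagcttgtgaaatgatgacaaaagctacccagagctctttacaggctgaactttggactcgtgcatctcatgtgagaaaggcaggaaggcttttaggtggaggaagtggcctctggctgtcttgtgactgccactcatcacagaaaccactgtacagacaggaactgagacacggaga
The capitals, TTATGCAA, match the C/EBP motif TTGCNNAA on the other strand and begin 176 bases before the RefSeq start. The gene model used for the levels starts further upstream, at 65144908, within this stretch. Relative to that start the match lies just inside the gene and not before it. Of the 10 genes, 7 had at least 1 entry in the promoter table, and Alox15, Alox5ap and Ptgis had none. Alox5ap, also lower by the test, could thus not be searched. Among the 7, the C/EBP motif was found in Hpgds and Ptgs2, where 10.4% of all promoters hold it. TATAAA was found only in Pla2g4a, in 1 of its 2 entries (chr1:149922410-149922689). The other entry, chr1:149961261-149961540, holds the annotated start of the gene (149961290) and had no match to the 6 motifs.

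Ptgis, the prostacyclin synthase (ENSMUSG00000017969, chromosome 2, 167191805 to 167240604, minus strand), was too low to be tested. It measured 0.419, 0.369 and 0.259 FPKM in the WT libraries, replicates 1 to 3, against 0.675, 0.473 and 0.699 FPKM in the PGRN KO libraries, replicates 4 to 6, from 44 and 84 fragments. All PGRN KO libraries were above all WT libraries. In a fit without the filter the log2 fold change was 0.26 (limma adjusted p = 0.190). The summed level of 8 markers of mesothelial cells or fibroblasts, cell types that make prostacyclin, was 0.967 to 1.09 FPKM in WT against 1.80 to 3.28 FPKM in PGRN KO. Mean levels of Dcn, Col1a1 and Col3a1 were 0.490, 0.227 and 0.0294 FPKM in WT against 1.35, 0.548 and 0.190 FPKM in PGRN KO. Wt1 was also higher in PGRN KO by mean, while Msln, Krt19 and Upk3b were lower. These last 4 were under 0.5 FPKM in every library, and the defining mesothelial marker Lrrn4 was listed at 0. The part of such cells in the result was not tested. Here as elsewhere, fewer cells of a type and less RNA per cell cannot be told apart. Ptgis shares 156 bases with the antisense gene 1110018N20Rik.

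In the leukotriene branch the partner of 5-lipoxygenase was abundant while 5-lipoxygenase itself was hardly detected. Alox5ap (ENSMUSG00000060063, chromosome 5, 149264767 to 149288153, plus strand) measured 61.5, 65.9 and 63.4 FPKM in the WT libraries, replicates 1 to 3, against 36.8, 36.8 and 48.7 FPKM in the PGRN KO libraries, replicates 4 to 6. The groups did not overlap, and PGRN KO replicate 6 was the closest to WT. The means were 63.6 ± 2.21 and 40.8 ± 6.82 FPKM (SD, n = 3 each), 1.56-fold higher in WT, with a log2 fold change of -0.64 ± 0.13 and a 95% interval from -0.94 to -0.34 (limma adjusted p = 0.0138). The call was lost without WT replicate 1, 2 or 3 (limma adjusted p = 0.0608, 0.0655 and 0.0566) and held in the other 11 of 14 alternatives, with a log2 fold change of -0.77 without PGRN KO replicate 6 (limma adjusted p = 0.000461). Alox5ap shares 189 bases with the antisense gene Gm19719.

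Alox5 (ENSMUSG00000025701, chromosome 6, 116410077 to 116461178, minus strand) measured 0.684, 0.757 and 0.715 FPKM in the WT libraries, replicates 1 to 3, against 0.394, 0.412 and 0.507 FPKM in the PGRN KO libraries, replicates 4 to 6. The groups did not overlap, and the values rested on 146 fragments in WT and 96 in PGRN KO. The gene was under the filter, and a fit without the filter gave a log2 fold change of -0.26 (adjusted p from limma = 0.134, and 0.0616 without PGRN KO replicate 6).

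Alox5 and Alox5ap are both abundant in neutrophils. The summed level of 8 neutrophil markers was 68.3 to 73.4 FPKM in WT against 42.7 to 43.9 FPKM in PGRN KO, the same direction as both genes. Of the list, 2 markers were tested. S100a8, which carried most of the drop in the sum, fell from 50.0 FPKM in WT to 23.3 FPKM by the test. Mmp8 was at 20.2 FPKM in WT against 19.5 FPKM in PGRN KO and did not pass. The defining markers Ly6g and Cxcr2 were listed at 0 in every library, and S100a9, Retnlg, Camp and Ltf were under 0.5 FPKM. The part of neutrophils in the Alox5 and Alox5ap differences was not tested.

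Lta4h, the leukotriene A4 hydrolase (ENSMUSG00000015889, chromosome 10, 93453411 to 93484875, plus strand), measured 7.39, 7.37 and 6.91 FPKM in the WT libraries, replicates 1 to 3, against 5.58, 5.70 and 6.09 FPKM in the PGRN KO libraries, replicates 4 to 6. The groups did not overlap. The log2 fold change of -0.28 ± 0.08 (95% interval -0.47 to -0.08) missed the threshold (limma adjusted p = 0.0509). It passed in 6 of 14 alternatives, and without PGRN KO replicate 6 it was -0.31 (limma adjusted p = 0.00966). Alox15 (ENSMUSG00000018924, chromosome 11, 70344152 to 70352031, minus strand) was at 0.0731, 0.0551 and 0.203 FPKM in WT against 0.0471, 0.108 and 0.0943 FPKM in PGRN KO. These levels rested on 14 and 11 fragments, the groups overlapped, and no difference was detectable at this depth.

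**Figure D3:**
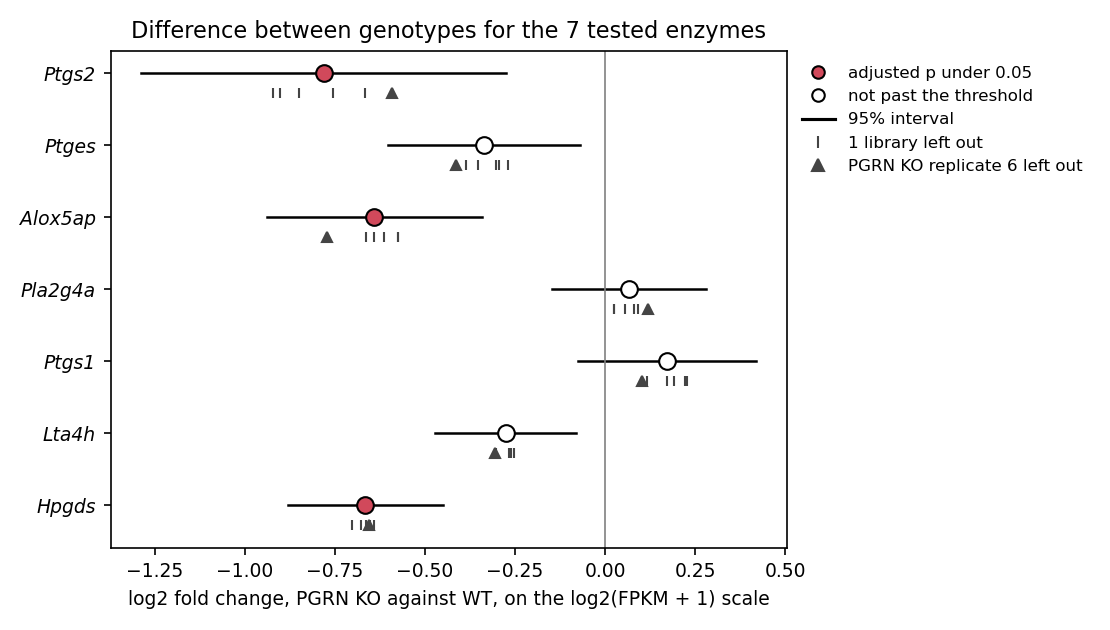
Log2 fold change of PGRN KO against WT on the log2(FPKM + 1) scale for the 7 tested genes, with the 95% interval as a line, filled points past the threshold, and the value with each library left out as a tick (a triangle for PGRN KO replicate 6). Ptgs2, Alox5ap and Hpgds are filled and lie between -0.64 and -0.78, and no value of a gene changes side of 0 when a library is left out.

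The other genes of the pathway changed in both directions. Of 79 further genes listed by role, 36 passed the filter, 7 were higher and 8 lower in PGRN KO, or 41.7% called where 24.2% of all tested genes were called (10.4% higher and 13.8% lower), and 10 were listed at 0 in every library. The lists were chosen with earlier results of these data known, so the share called is no test of the pathway. Of the 15 called, 2 (Pla2g16 and Cysltr2) passed the filter only through PGRN KO, where they were higher. The median log2 fold change of the 36 was -0.07, against -0.03 over all genes tested. In the fits that left out 1 library each, 7 of the 15 calls were made every time, those of Acsl3, Ptges3, Mgst1, Cyp4f18, Cysltr2, Cmklr1 and Fpr2, and all 15 kept their sign in every alternative. The other 8 calls were lost in at least 1 such fit.

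Among 17 genes of arachidonate release, 4 were tested, 1 was higher and 1 was lower. Pla2g16, a phospholipase of adipose tissue, rose from 0.510 ± 0.143 FPKM in WT to 1.49 ± 0.508 FPKM (limma adjusted p = 0.0258) and passed the filter only through PGRN KO. Pla2g15, the lysosomal phospholipase A2, fell from 9.75 ± 1.18 FPKM in WT to 6.88 ± 0.939 FPKM (limma adjusted p = 0.0441). The most abundant gene of the list, Pla2g7, which encodes the hydrolase of platelet-activating factor, was at 271 ± 15.1 FPKM in WT against 219 ± 15.4 FPKM in PGRN KO (limma adjusted p = 0.0666). Pla2g7 shares 319 bases with the antisense gene 1700071M16Rik. Without WT replicates 1, 2 and 3 the adjusted p was 0.0643, 0.0895 and 0.0919 for Pla2g16 and 0.149, 0.0657 and 0.148 for Pla2g15. Without PGRN KO replicate 4 it was 0.0684 and 0.111, and without PGRN KO replicate 5 the Pla2g15 call was also lost (0.0938).

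Of 11 genes that return arachidonate to phospholipids, 8 were tested and 2 were lower, both acyl-CoA synthetases. Acsl3 fell from 4.05 ± 0.0412 FPKM in WT to 2.01 ± 0.197 FPKM, with -0.75 as log2 fold change (limma adjusted p = 0.00301). Acsl3 shares 244 bases with Utp14b on the same strand. Acsl4, which prefers arachidonate, fell from 81.6 ± 4.38 FPKM in WT to 59.2 ± 9.57 FPKM, with -0.47 as log2 fold change (limma adjusted p = 0.0453). The Acsl4 call held without PGRN KO replicate 6 (limma adjusted p = 0.00775) and was lost without each of the other 5 libraries (0.0555 to 0.158).

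In prostanoid synthesis, 7 of 8 further genes were tested, 2 were higher and 1 was lower. Ptges3, the cytosolic prostaglandin E synthase that is also the co-chaperone p23, fell from 44.5 ± 3.80 FPKM in WT to 28.1 ± 2.27 FPKM (limma log2 fold change -0.64, adjusted p = 0.00752). Ptges2, a membrane-bound prostaglandin E synthase, rose from 1.31 ± 0.172 FPKM in WT to 2.36 ± 0.432 FPKM (limma log2 fold change 0.54, adjusted p = 0.0218). With the inducible Ptges, the 3 synthases named for prostaglandin E2 thus had log2 fold changes of -0.64, -0.34 and 0.54. Akr1b3, an aldose reductase that can make prostaglandin F2 alpha, rose from 2.73 ± 0.274 FPKM in WT to 4.72 ± 0.987 FPKM (limma adjusted p = 0.0218). Without WT replicates 1, 2 and 3 the adjusted p was 0.0883, 0.0893 and 0.0538 for Ptges2 and 0.0939, 0.0817 and 0.0578 for Akr1b3. Values of Ptges3 and Akr1b3 are uncertain, since 20.6% and 10.8% of their 31-base words occur in other genes, mainly Ptges3-ps and Gm6644.

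Of 10 further leukotriene and lipoxygenase genes, 3 were tested and 1 was higher. Mgst1, a microsomal glutathione transferase, rose from 23.3 ± 0.624 FPKM in WT to 37.3 ± 2.92 FPKM (limma log2 fold change 0.65, adjusted p = 0.00459). Cotl1, whose product binds 5-lipoxygenase and actin, was at 408 ± 12.1 FPKM in WT against 496 ± 116 FPKM in PGRN KO (limma adjusted p = 0.291). It measured 420, 437 and 630 FPKM in PGRN KO replicates 4 to 6. The log2 fold change of 0.26 was 0.07 without PGRN KO replicate 6. Leukotriene C4 synthase (Ltc4s) was under the filter at 0.574 ± 0.123 FPKM in WT against 0.206 ± 0.0925 FPKM in PGRN KO.

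Of 16 genes of inactivation and transport, 6 were tested, 2 were higher and 1 was lower. Cyp4f18, which oxidizes leukotriene B4, measured 8.41, 9.55 and 9.83 FPKM in the WT libraries, replicates 1 to 3, against 1.71, 2.62 and 4.02 FPKM in the PGRN KO libraries, replicates 4 to 6. The groups were far apart, and the log2 fold change of -1.48 ± 0.21 (limma adjusted p = 0.00530) was the largest in size of the 36 tested on the log2(FPKM + 1) scale. By group means its level was 3.33-fold higher in WT, while Cysltr2, a gene of lower level, was 4.04-fold higher in PGRN KO. Cyp4f18 shares 181 bases with the antisense gene Zfp961, and 4% of its 31-base words occur in other genes, mainly Cyp4f17. Ptgr1, whose product acts on both leukotriene B4 and prostaglandins, rose from 24.2 ± 0.268 FPKM in WT to 37.9 ± 9.16 FPKM (limma adjusted p = 0.0358). Cyp4f13, a relative of Cyp4f18, rose from 5.08 ± 0.321 FPKM in WT to 7.53 ± 0.897 FPKM (limma adjusted p = 0.0189). Without WT replicates 1, 2 and 3 the adjusted p was 0.119, 0.116 and 0.102 for Ptgr1 and 0.0643, 0.0765 and 0.0792 for Cyp4f13, and the Ptgr1 call was also lost without PGRN KO replicate 5 (0.0540). The prostaglandin dehydrogenase Hpgd was listed at 0 in 5 of the 6 libraries and at 0.126 FPKM in PGRN KO replicate 5.

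Of 17 receptor genes, 8 were tested, 1 was higher and 3 were lower. Cysltr2, a receptor of cysteinyl leukotrienes, measured 0.416, 0.612 and 0.502 FPKM in the WT libraries, replicates 1 to 3, against 2.15, 2.02 and 2.01 FPKM in the PGRN KO libraries, replicates 4 to 6. The groups did not overlap, and the gene passed the filter only through PGRN KO (limma log2 fold change 1.02, adjusted p = 0.00142). Its relative Cysltr1, under the filter, was at 0.314 ± 0.0517 FPKM in WT against 0.769 ± 0.160 FPKM in PGRN KO. Cmklr1, a receptor of chemerin, was at 26.8, 25.9 and 26.0 FPKM in WT against 13.5, 15.1 and 12.4 FPKM in PGRN KO, again without overlap (limma log2 fold change -0.90, adjusted p = 0.00206). Fpr2, a receptor of formyl peptides that also binds lipoxin A4, fell from 107 ± 8.16 FPKM in WT to 62.2 ± 6.58 FPKM (limma adjusted p = 0.00535), with 43% of its 31-base words found in other genes, so its value is uncertain. Ltb4r1, the high-affinity receptor of leukotriene B4, fell from 2.29 ± 0.410 FPKM in WT to 1.12 ± 0.410 FPKM (limma adjusted p = 0.0370). The Ltb4r1 call held without PGRN KO replicate 6 (limma adjusted p = 0.0154) and was lost without each of the other 5 libraries (0.0601 to 0.132). The prostacyclin receptor Ptgir was at 35.8 ± 1.71 FPKM in WT against 36.9 ± 2.41 FPKM in PGRN KO, with a 95% interval of the log2 fold change from -0.17 to 0.26.

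**Figure D4:**
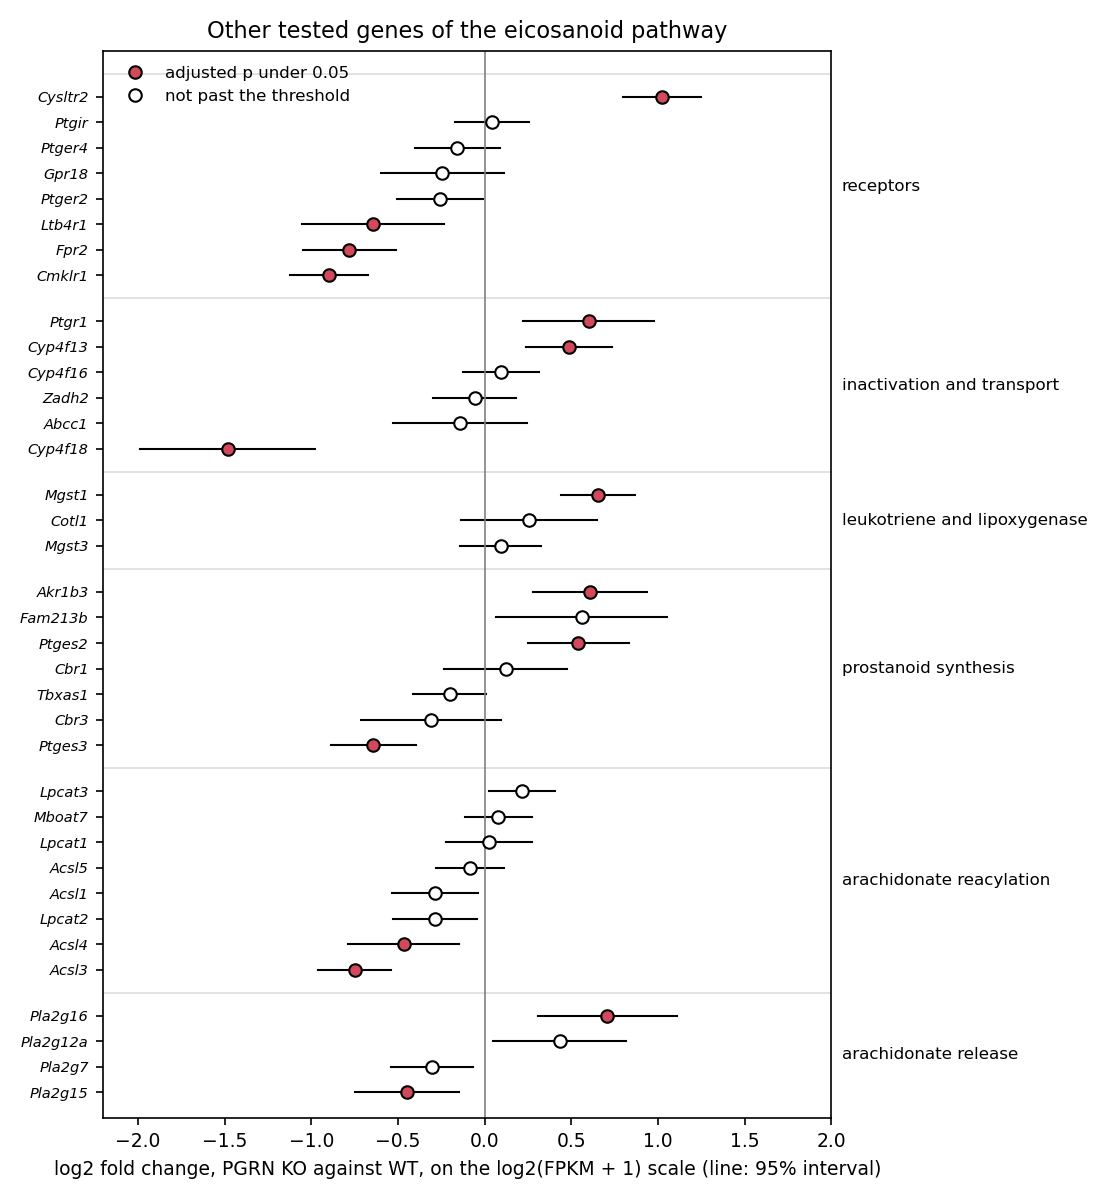
Log2 fold change of PGRN KO against WT, on the log2(FPKM + 1) scale with 95% intervals, for the 36 other tested genes of the pathway grouped by role, with filled points past the threshold. The 15 filled points lie on both sides of 0, from Cyp4f18 at -1.48 to Cysltr2 at 1.02.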

How the data were processed

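The authors aligned reads to the mouse genome (GRCm38 per the labels), counted fragments per gene and deposited FPKM for each library. The submitters' processing notes name CASAVA, HISAT2 2.0.5, featureCounts 1.5.0-p3 and DESeq2 1.20.0, whereas the study's methods name HISAT and HTSeq. The sources used here do not say whether strand was used in counting. FPKM times gene length gave whole fragments for 100% of values in each library, within 0.001 of a fragment. The library sizes used by the authors were proportional to median-ratio size factors, so the deposited FPKM were already scaled between libraries.

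Groups came from the labels. Values were analysed as log2(FPKM + 1), and genes with a mean of at least 1 FPKM over 6 libraries (8882 of 54532) entered limma 3.58.1 (R 4.3.3), which compared the groups with these settings (mean-variance trend, no covariates, two-sided, Benjamini-Hochberg adjustment, threshold 0.05). The deposited unit was FPKM, so limma on log2 values was the main test, voom on recovered fragments was an alternative, and the study's DESeq2 was not run. Ratios and shares were compared by exact permutation tests. Scripts were tested on simulated data. The alternatives were a pseudocount of 0.1, no filter, a mean of at least 5 FPKM, a TPM scale, sample quality weights, voom on the recovered fragments, a loess correction for gene length (span 0.5) and leaving out each library. The filter was not set anew when a library was left out. Added after seeing the data were the length correction without PGRN KO replicate 6 and, for genes under the filter, unfiltered fits by voom or without that library. All pairs of libraries differed by more than counting noise (lowest chi-square per degree of freedom 4.53).

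Among other pathway genes, up to 4 past the threshold per role and the most abundant tested one were named, and further genes were named after their values were seen (Ltc4s, Hpgd, Cysltr1 and Ptgir). The members and lists were chosen with earlier results of these data known. Motifs were searched in RefSeq promoters of 280 bases.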

Additional observations from a re-analysis of the deposited data

How the results depend on the processing

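The 7 tested enzyme genes were followed through 97 comparisons with an alternative. In 76 the direction and the side of the threshold were as in the report, 11 passed where the report's fit did not, 10 no longer passed, and 0 changed direction. The number of the 10 genes called was 3, and it was 5 with sample quality weights and 5 with the length correction without PGRN KO replicate 6, where Ptges and Lta4h were added. With 1 library left out it ranged from 1 to 5. Without each of the WT libraries 1 gene, Hpgds, was called, and the 5 came without PGRN KO replicate 6. It was 4 with a pseudocount of 0.1, with voom or with the length correction. Over all genes 2151 were called, against 1366 without a filter, 4225 with sample quality weights and 3633 when PGRN KO replicate 6 was dropped and length corrected. With 1 library left out, between 713 (WT replicate 1 dropped) and 3668 (PGRN KO replicate 6 dropped) genes were called. Of the other pathway genes 15 were called, against 9 at a mean of at least 5 FPKM and 7 to 19 with 1 library left out. On the TPM scale 60.6% of the calls over all genes were higher in PGRN KO, against 42.8% in the report's fit. Voom on recovered fragments called 2267 genes. With 1 library left out, the log2 difference of the Ptgs2 to Ptgs1 ratio ranged from -1.15 to -0.71 and that of the Ptges to Ptgs2 ratio from 0.18 to 0.60. Ratios with Alox5 were not run, since it was under the filter, and a mean of at least 5 FPKM left Hpgds untested. The causes of these shifts were not tested. No paired analysis was possible because replicate numbers 1 to 3 were used for WT alone and 4 to 6 for PGRN KO alone. With 3 libraries a group, depth limits the genes under 1 FPKM: Alox15 rested on 14 and 11 fragments and Ptgis on 44 and 84.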

Other observations

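Ptgs2 and Pla2g4a lie on mouse chromosome 1, 138740 bases apart, with 3 genes of the table between them (Ptgs2os, Gm19136 and Gm44329). A difference between their responses was not tested. A noncoding gene on the far side of Ptgs2, Ptgs2os2 (chromosome 1, 150159043 to 150164948, minus strand, 50815 bases away), measured 16.5, 20.1 and 14.4 FPKM in the WT libraries, replicates 1 to 3, against 15.3, 12.8 and 14.8 FPKM in the PGRN KO libraries, replicates 4 to 6. The groups overlapped (limma log2 fold change -0.23, adjusted p = 0.258). The noncoding Ptgs2os, which lies on the minus strand with its start 67 bases before that of Ptgs2, was under the filter at 0.715 ± 0.171 FPKM in WT against 0.467 ± 0.104 FPKM in PGRN KO (SD, n = 3 each), with overlapping groups.

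Marker lists of other cells are given as summed levels, and their part in the results was not tested. The summed level of 6 B cell markers was 1.501 to 2.49 FPKM in WT against 6.63 to 8.92 FPKM in PGRN KO, with Cd79a and Cd79b higher by the test, both having passed the filter only through PGRN KO. That of 6 T cell markers was 2.32 to 2.73 FPKM in WT against 3.66 to 5.13 FPKM in PGRN KO, with 0 called. For 6 platelet markers, a cell type that uses Ptgs1, the sums were 53.2 to 61.7 FPKM in WT against 47.1 to 71.4 FPKM in PGRN KO, mostly Pf4, with overlapping groups and the defining Gp1bb listed at 0. For 5 eosinophil markers they overlapped too, at 0.0914 to 0.311 and 0.155 to 0.352 FPKM, with Prg2 and Epx listed at 0. For 8 markers of small peritoneal macrophages or monocytes they were 46.7 to 49.6 and 32.3 to 52.1 FPKM, with overlapping groups and with Ly6c2 lower and Plac8 higher by the test. For the 7 macrophage markers they were 7091 to 7423 FPKM in WT against 7235 to 9725 FPKM in PGRN KO, with Mertk higher and Csf1r lower, and for 8 markers of large peritoneal macrophages 332 to 353 and 292 to 312 FPKM, with Icam2 higher. The macrophage sum was mostly Lyz2, at 5990, 5873 and 8135 FPKM in PGRN KO replicates 4 to 6. Most of the drop in the last sum was Cd9, at 319 FPKM in WT against 277 FPKM in PGRN KO. Cd9 did not pass (limma adjusted p = 0.1385). Of the other tested markers of that list, Gata6 and Icam2 were higher in PGRN KO by mean and Prg4 was lower.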
